A study of Mus musculus with 6 samples.

Results

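Complement genes and clusterin were followed through single-cell RNA sequencing of the mouse bladder mucosa. The 9 genes were C1qa, C1qb, C1ra, C1s1, C4b, C3, Cfb, Serping1 and Clu, taken as a list and matched by Ensembl identifier, and they were 9 of the 14338 genes listed for all 6 libraries once mitochondrial and ribosomal genes were set aside. All libraries came from the torn-off mucosal layer of wild type C57BL/6 mice at an age of 8 weeks. The healthy group received no injury, the acute group was taken 48 h after CPP (cyclophosphamide, a drug whose breakdown products in urine damage the bladder lining), and the chronic group had 4 rounds of CPP over 11 days, with 2 libraries in each group. By the study's methods, each chronic injection had a smaller dose than the acute one, and chronic bladders were also taken 48 h after the last injection. The study describes the libraries of a group as biological replicates, from several mice per condition, and says that libraries were handled in batches. Which mice and which batch belonged to which library was not given in the sources used here, so a batch could not be told apart from a library. The p-values of injury comparisons measure the spread between libraries of a group. Those of class comparisons measure how the difference within a library varied over libraries. Both spreads may be partly technical.

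Complement is a cascade of proteins that tags microbes and damaged cells. In the classical pathway, C1q (built from the products of C1qa, C1qb and C1qc) binds a target and switches on the proteases C1r and C1s, which cut C4 and C2. The resulting enzyme cuts C3, whose large fragment coats the target, and factor B (Cfb) feeds an amplifying loop, the alternative pathway. C1 inhibitor (Serping1) blocks C1r and C1s, and clusterin (Clu) is a secreted chaperone that can keep the terminal complement complex out of membranes. The liver makes most circulating complement, while macrophages are a main source of C1q in tissues, and fibroblasts make several of the classical pathway proteins locally.

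In the GENCODE annotation of GRCm38 (the build called mm10), all 9 were protein-coding genes. C1qb (chr4:136880129-136886187) and C1qa (chr4:136895917-136898803) lay on the minus strand with C1qc between them. C1ra (chr6:124512405-124523443, plus strand) and C1s1 (chr6:124530345-124542359, minus strand) were 6901 bases apart. C4b (chr17:34728380-34743882) and Cfb (chr17:34856374-34862518) lay in the same region of chromosome 17, on the minus strand, and C3 (chr17:57203970-57228136, minus strand) lay farther along that chromosome. Serping1 was at chr2:84765387-84775444 (minus strand) and Clu at chr14:65968483-65981547 (plus strand). C4b, C1ra and C1s1 have near-identical copies (C4a, C1rb and C1s2), so reads could be split between copies by the authors' counting. C2 ended 85 bases before the start of Cfb on the same strand, and reads over that junction could be given to either.

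RefSeq start regions on GRCm38.p6 were at hand for 4 of the 9 genes. The 250 bases before the start are shown for C3, C1qb and C1s1, since they were the genes that differed most between stromal classes, that marked macrophages and that were shared by the stroma. Capitals mark C/EBP letters (TTGNGNAA) in C3, at -70 to -63 and -45 to -38 from the start, and ETS letters (AGGAAGT, here on the opposite strand) in C1qb at -53 to -47. The fourth start region, of C1ra, also held the C/EBP letters, on the opposite strand at -72 to -65, and is not printed.
C3 (chr17:57228137-57228386, minus strand): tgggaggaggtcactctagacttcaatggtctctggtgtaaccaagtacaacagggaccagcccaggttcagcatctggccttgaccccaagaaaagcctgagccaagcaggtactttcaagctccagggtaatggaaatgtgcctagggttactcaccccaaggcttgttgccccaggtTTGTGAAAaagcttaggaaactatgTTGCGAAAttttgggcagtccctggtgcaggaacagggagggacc
C1qb (chr4:136886201-136886450, minus strand): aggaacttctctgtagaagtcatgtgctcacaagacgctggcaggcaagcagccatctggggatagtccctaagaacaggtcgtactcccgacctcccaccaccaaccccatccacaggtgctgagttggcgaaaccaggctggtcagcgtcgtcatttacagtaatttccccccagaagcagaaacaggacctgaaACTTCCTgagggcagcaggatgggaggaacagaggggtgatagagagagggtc
C1s1 (chr6:124542360-124542609, minus strand): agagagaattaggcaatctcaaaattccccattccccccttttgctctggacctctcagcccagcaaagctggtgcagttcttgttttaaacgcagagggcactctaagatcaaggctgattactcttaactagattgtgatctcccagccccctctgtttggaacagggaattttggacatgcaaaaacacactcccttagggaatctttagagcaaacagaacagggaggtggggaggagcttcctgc
The search covered both strands for TTGNGNAA, AGGAAGT, TTCNNNGAA (STAT) and the ISRE, and the forward strand for TATAAA. Of 32851 RefSeq start regions of the same length, 11.7% held TTGNGNAA and 7.69% held AGGAAGT. TTCNNNGAA occurred in 7.02%, the ISRE in 2.98% and TATAAA in 7.59%. The C1s1 window held none of the motifs searched, which says only that these letters were not in it.

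The 6 libraries held 54604109 to 111985678 unique molecular identifiers (UMIs, each a counted RNA molecule) in 5348 to 15062 cell barcodes, with a median of 1767 to 2274 genes per barcode. Pairs of libraries shared 36 to 229 barcodes. Acute replicate 2 listed 20180 genes and acute replicate 1 listed 15065, so only genes listed in every library were used. Levels are given as CPM, UMIs of a gene per 1000000 UMIs of the 14338 genes, summed over the cells of a class in a library, and only where a class had at least 20 cells. Cells were sorted into classes by marker genes that did not include any complement gene, and the 9 genes and the other complement genes were kept out of the clustering. The classes were nevertheless built from other genes of the same cells. The 9 macrophage markers (among them Csf1r and Adgre1) summed to 16139 to 26268 CPM in macrophages, the 6 fibroblast markers (Pi16, Scara5 and others) to 3043 to 10305 CPM in fibroblasts and 275 to 2855 in myofibroblasts, and the 4 myofibroblast markers (Acta2, Tagln, Car3 and Cxcl14) to 8363 to 20064 CPM in myofibroblasts and 248 to 1995 in fibroblasts. Chronic replicate 2 held 23 fibroblasts, against 325 to 1604 in the other libraries, and its fibroblasts carried 757 CPM of the 9 macrophage markers, against 43.2 to 74.6 elsewhere.

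**Figure D1:**
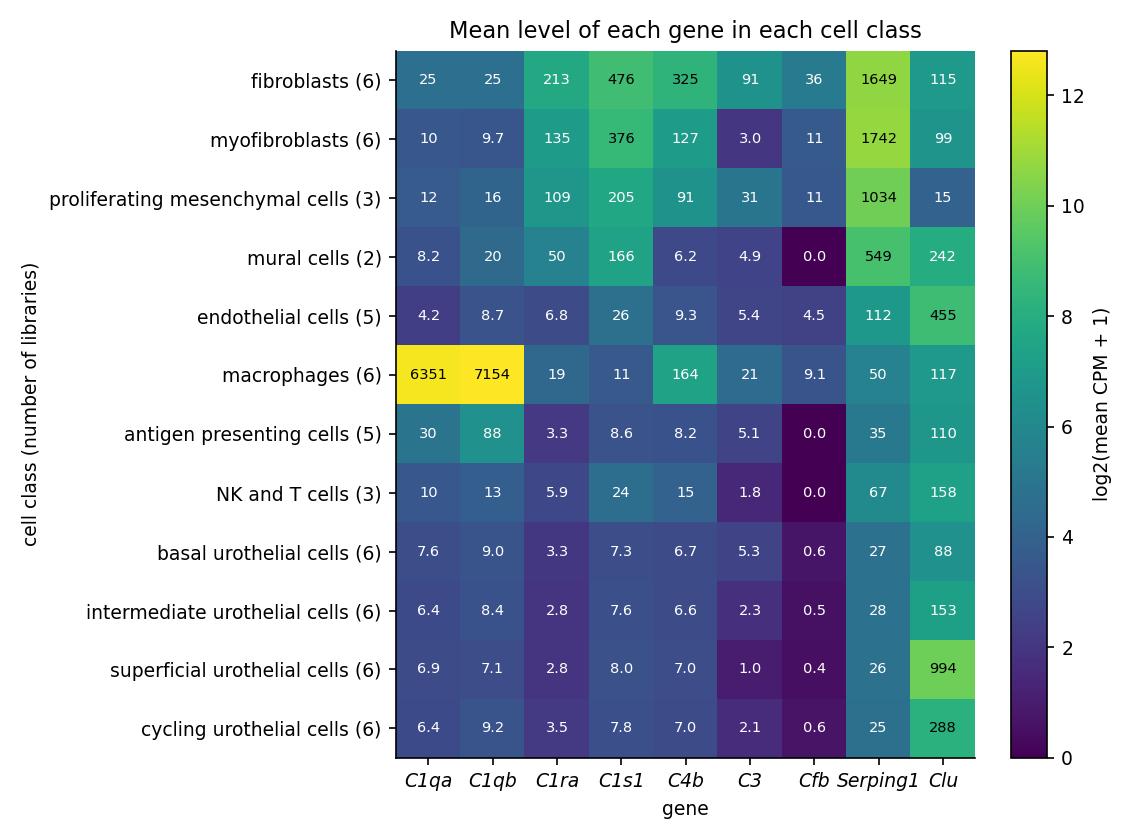
Mean level of the 9 genes (columns) in 12 cell classes (rows), with colour giving log2(mean CPM + 1) and the printed number the mean CPM; the number of libraries is in brackets. C1qa and C1qb stood at 6351 and 7154 CPM in macrophages, C1ra, C1s1, C4b and Serping1 were high in fibroblasts and myofibroblasts, and Clu peaked in superficial urothelial cells at 994 CPM.

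C1q, the recognition part of the classical pathway, was carried by macrophages. In macrophages C1qa was at 6435 and 7361 CPM in the healthy libraries, 6853 and 7653 in the acute and 6061 and 3741 in the chronic libraries. C1qb was at 6997 and 7716 CPM in the healthy, 8388 and 6894 in the acute and 7195 and 5732 in the chronic libraries. The means were 6351 ± 1405 CPM for C1qa and 7154 ± 889 CPM for C1qb (SD, n = 6 libraries), and chronic replicate 2 was the lowest library for both. In the mesenchymal cells (fibroblasts, myofibroblasts and their dividing counterparts) C1qa averaged 12.1 ± 10.2 and C1qb 12.3 ± 11.8 CPM (SD, n = 6). Chronic replicate 2, whose fibroblasts carried macrophage markers, was at 32.6 and 35.9 CPM, and the other libraries at 5.70 to 9.78 and 2.85 to 9.41 CPM. The log2 difference between macrophages and mesenchymal cells was 9.71 ± 0.45 for C1qa (SE; edgeR quasi-likelihood test, adjusted p = 1.9e-09) and 9.86 ± 0.46 for C1qb (adjusted p = 2.3e-09), with macrophages higher in 6 of 6 libraries.

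The neighbouring myeloid class, antigen presenting cells, had far less C1q than macrophages, although its cells carried 4996 to 6751 CPM of the 9 macrophage markers. In antigen presenting cells C1qa was at 4.52 and 0 CPM in the healthy libraries, 56.8 in acute replicate 2 and 45.6 and 41.7 in the chronic libraries, all far below any macrophage library. C1qb was at 13.6 and 17.4 CPM in the healthy libraries, 105 in acute replicate 2 and 128 and 177 in the chronic libraries, from 3 to 35 UMIs. The injured libraries were the higher ones for both genes, which was not tested in this class. Acute replicate 1 had only 13 of these cells and gave no value. The share of all genes lying this way was not worked out, so no result is read from it. For C1qa the count of 0 in healthy replicate 2 allowed up to 10.4 CPM. Counted per cell after thinning each cell to 1500 UMIs, 88.9% to 97.3% of macrophages and 0.402% to 1.93% of basal urothelial cells, which should lack the gene, had a C1qa UMI. Before thinning these ranges were 90.7% to 97.3% at a median of 2895 UMIs per macrophage and 1.14% to 4.39% at a median of 3738 UMIs per basal cell. Fibroblasts, thinned, stood at 0.841% to 4.35%, with the highest share in chronic replicate 2 and 0.841% to 1.99% in the others, at or little above the shares of basal cells. In mesenchymal against urothelial cells C1qa differed by a log2 of 0.61 ± 0.23 (adjusted p = 0.032), and this call was lost in 5 of the alternative analyses, with adjusted p from 0.057 to 0.23.

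The macrophage class divided into sub-clusters, described here without a test because they were formed on the same cells. A sub-cluster led by Lyve1 and Folr2, genes of tissue-resident macrophages, held 241 cells, with a mean of 7712 CPM for C1qa and 8144 CPM for C1qb (n = 5 libraries). The other, led by Cx3cr1 and Il1a, held 253 cells, with 5096 CPM for C1qa and 5902 CPM for C1qb (n = 4). The means cover different libraries, since only healthy replicate 1, acute replicate 2 and chronic replicate 1 had enough cells of both. In these 3, in that order, C1qa was at 6608, 8658 and 7583 CPM in the Lyve1 and Folr2 and 6327, 6915 and 4350 CPM in the Cx3cr1 and Il1a sub-cluster. C4b separated them more widely. In the Lyve1 and Folr2 sub-cluster C4b was at 242 and 262 CPM in the healthy libraries, 246 and 290.3 in the acute and 352 in chronic replicate 1, and in the Cx3cr1 and Il1a sub-cluster it was at 23.7 CPM in healthy replicate 1, 8.35 in acute replicate 2 and 71.9 and 42.3 in the chronic libraries. Every library of the Lyve1 and Folr2 sub-cluster was above every library of the other in C4b level. The Lyve1 and Folr2 sub-cluster had 33 and 69 cells in the healthy, 28 and 59 in the acute and 35 and 17 in the chronic libraries, and the Cx3cr1 and Il1a sub-cluster 61 and 19, 9 and 95, and 32 and 37 cells. Either sub-cluster was the larger in at least 1 library of every group.

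The proteases that C1q activates were expressed in the stroma. C1s1, encoding C1s, was at 549.7 and 483 CPM in fibroblasts of the healthy libraries, 355 and 428 in the acute and 458 and 582 in the chronic libraries. In myofibroblasts (stromal cells with Acta2 and Tagln) it was at 429 and 381, 324 and 325, and 397 and 399.6 CPM in the same order. Fibroblasts were higher in 6 of 6 libraries, by a log2 of 0.26 ± 0.09, which missed the threshold of adjusted p 0.05 (adjusted p = 0.063; the interval of 2 SE ran from 0.07 to 0.44). Mesenchymal cells exceeded urothelial cells, at 7.70 ± 3.23 CPM (SD, n = 6), by a log2 of 5.85 (adjusted p = 3.2e-08). Macrophages were below mesenchymal cells by a log2 difference of -5.14 (adjusted p = 1.3e-08).

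C1ra, encoding C1r, had the same distribution with a clearer fibroblast excess. Fibroblasts were at 266 and 189.7 CPM in the healthy libraries, 113 and 221 in the acute and 302 and 189 in the chronic libraries. Myofibroblasts were at 173 and 72.4, 92.9 and 126, and 233 and 112 CPM. The ranges of the classes overlapped, but within each library fibroblasts were higher, 6 of 6, by a log2 of 0.66 ± 0.14 (adjusted p = 0.0025). Without the library as a block the adjusted p was 0.23, the highest of the alternatives (1.4e-05 to 0.23). Urothelial cells had 2.93 ± 1.72 CPM (SD, n = 6), against 175 ± 67.8 in mesenchymal cells, a log2 difference of 5.97 (adjusted p = 1.4e-08).

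C4b, which makes the C4 cut by C1s, had overlapping levels in stroma and macrophages. In fibroblasts it was at 341 and 253 CPM in the healthy libraries, 144 and 258 in the acute and 465 and 487 in the chronic libraries. In myofibroblasts it was at 124 and 78.1, 89.4 and 47.4, and 270.4 and 155 CPM. Fibroblasts exceeded myofibroblasts in every library, by a log2 of 1.44 ± 0.19 (adjusted p = 5e-05), and stayed past the threshold in all 14 alternatives, with a log2 of 1.19 to 1.60. Macrophages were at 108 and 268, 199.7 and 128, and 220.1 and 61.9 CPM. Their level overlapped both stromal classes, and the log2 difference from mesenchymal cells was -0.06 ± 0.30, not past the threshold. Urothelial cells stood at 2.68 to 14.9 CPM, lower than mesenchymal cells by a log2 of 5.07 (adjusted p = 1.4e-08).

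**Figure D2:**
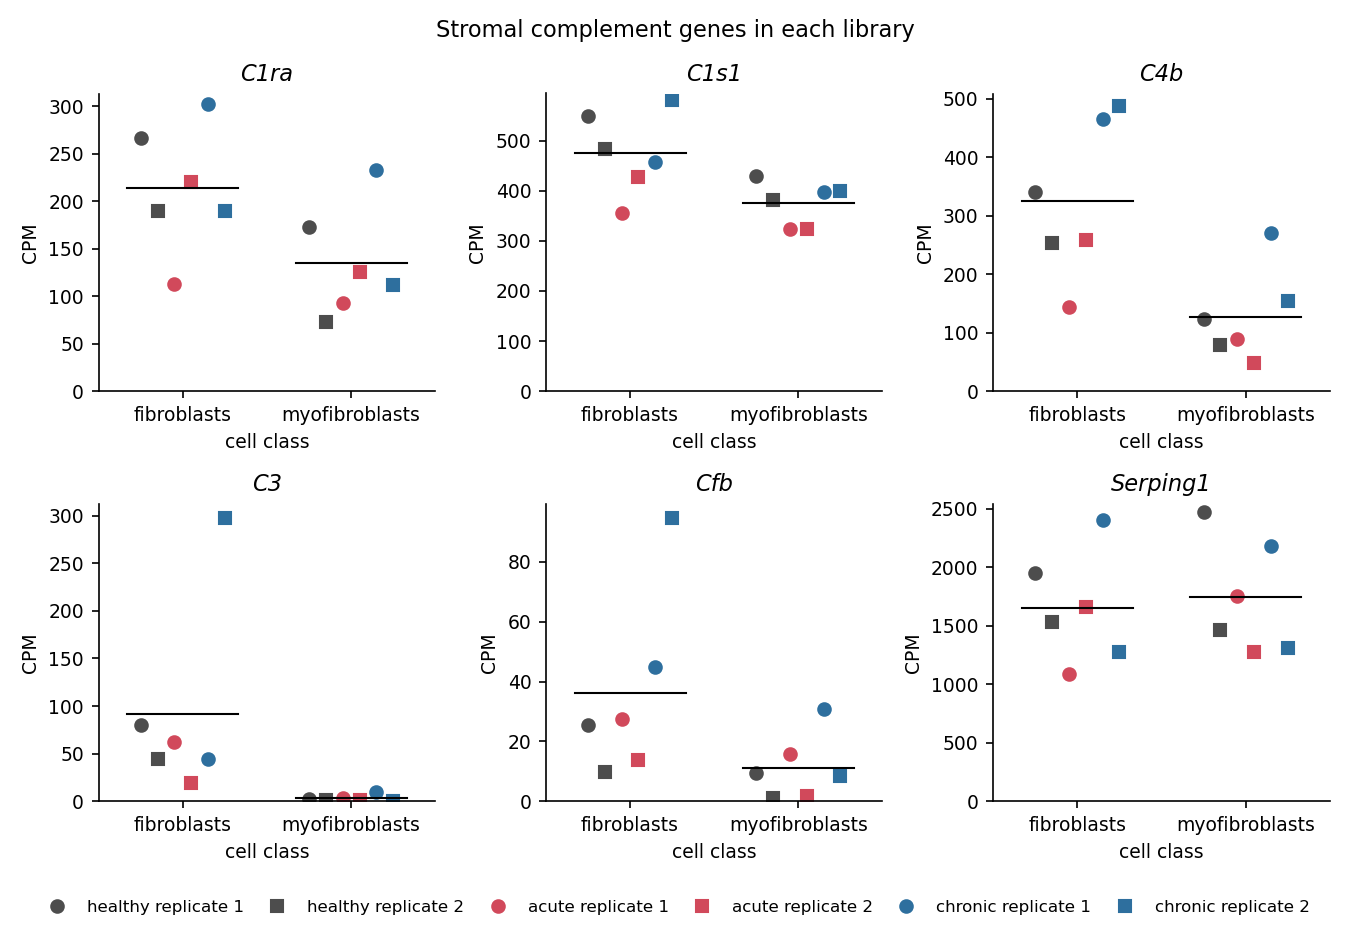
CPM (vertical axis) of C1ra, C1s1, C4b, C3, Cfb and Serping1 in fibroblasts and myofibroblasts, with circles for replicate 1, squares for replicate 2, grey for healthy, red for acute and blue for chronic libraries, and a line at the mean. C3 lay between 19.6 and 298 CPM in fibroblasts and between 0 and 10.3 CPM in myofibroblasts, while the Serping1 points of both classes overlapped.

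RNA of C3, which encodes the central protein of the cascade, was low in the mucosal cells measured and, of the stromal classes, was higher in fibroblasts. In fibroblasts it was at 80.0 and 44.5 CPM in the healthy libraries, 62.4 and 19.6 in the acute and 44.3 and 298 in the chronic libraries, from 22 to 235 UMIs. In myofibroblasts it was at 2.34 and 1.15, 3.51 and 0.945, and 10.3 and 0 CPM, from 0 to 10 UMIs per library, where the count of 0 in chronic replicate 2 allowed up to 12.9 CPM. Every fibroblast library lay above every myofibroblast library, and the log2 difference of 4.60 ± 0.28 (adjusted p = 3.8e-08) was the greatest of the 9 genes. Leaving out each library in turn gave 4.36 to 4.80. The value of 298 CPM came from chronic replicate 2, where 1 of the 23 fibroblasts held 19 of 22 C3 UMIs. Without that cell, left out after its values were seen, the level was 45.4 CPM, within the range of the other libraries.

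After thinning to 1500 UMIs, 2.43% to 8.17% of fibroblasts had a C3 UMI, against 0% to 2.19% of myofibroblasts, so most fibroblasts had none at this depth. Unthinned shares were 3.24% to 15.9% at a median of 2199 UMIs per fibroblast and 0% to 2.17% at a median of 3643 UMIs per myofibroblast. In basal urothelial cells the thinned share was 0.239% to 1.13%, so the myofibroblast share overlapped that of a class with few C3 molecules. Macrophages had 21.5 ± 15.6 CPM of C3 (SD, n = 6), from 1 to 20 UMIs per library, and did not differ from mesenchymal cells past the threshold (log2 difference 0.12 ± 0.62). Mesenchymal cells pool fibroblasts with myofibroblasts, so macrophages were not compared with fibroblasts alone. Mesenchymal cells were above urothelial cells by a log2 of 3.70 ± 0.43 (adjusted p = 2e-05).

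Within the urothelium C3 fell from layer to layer at low levels. Basal cells, the layer next to the stroma, had 5.28 ± 1.68 CPM, intermediate cells 2.30 ± 0.825 and superficial cells, which face the urine, 0.955 ± 1.14 (SD, n = 6 each). Intermediate cells were below basal cells by a log2 difference of -1.24 ± 0.19 (adjusted p = 1.7e-05). Superficial cells were below intermediate cells by a log2 difference of -1.16 ± 0.36 (adjusted p = 0.013), and without acute replicate 2 the adjusted p was 0.056 (0.0028 to 0.14 over the alternatives). The superficial value rests on few molecules. The superficial sub-cluster, with its cycling cells, held 0 to 19 C3 UMIs per library. The count of 0 in healthy replicate 2 allowed up to 1.23 CPM in superficial cells.

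Factor B, from Cfb, was found at low counts and mainly in fibroblasts. It was at 25.5 and 9.78 CPM in the healthy libraries, 27.5 and 13.9 in the acute and 44.7 and 94.7 in the chronic libraries, from 7 to 104 UMIs. In myofibroblasts it was at 9.62 and 1.15, 15.8 and 1.80, and 30.8 and 8.59 CPM. Fibroblasts were higher in 6 of 6 libraries, by a log2 of 1.72 ± 0.30 (adjusted p = 7.3e-04), and the adjusted p was 0.12 without the library as a block (7.3e-09 to 0.12 over the alternatives). In chronic replicate 2 the cell that carried most C3 also held 6 of the 7 Cfb UMIs, and the level without it was 15.1 CPM. The same cell held 8 of 8 Clu UMIs and 0 of 36 C4b UMIs, so C4b did not rest on it. Antigen presenting cells, mural cells and NK and T cells had 0 Cfb UMIs, which allowed up to 7.97 to 31.3 CPM per library, and urothelial cells had at most 1.54 CPM, below mesenchymal cells by a log2 of 5.37 (adjusted p = 1.8e-07).

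Serping1, the inhibitor of C1r and C1s, was at a high level in both stromal classes. Fibroblasts were at 1949.8 and 1530.2 CPM in the healthy libraries, 1083 and 1657 in the acute and 2402 and 1271 in the chronic libraries. Myofibroblasts were at 2471 and 1460.0, 1757 and 1275, and 2181 and 1306 CPM. Fibroblasts were higher in 3 of 6 libraries and lower in 3, with a log2 difference of -0.15 ± 0.13 (adjusted p = 0.50; interval of 2 SE from -0.41 to 0.12). Mural cells, the contractile cells around vessels, had 543 and 555 CPM in the acute libraries, endothelial cells 63.5 to 274 CPM and macrophages 25.0 to 77.1 CPM. Urothelial cells had 11.4 to 48.3 CPM, below mesenchymal cells by a log2 of 6.06 (adjusted p = 3.5e-08). Thinned to 1500 UMIs, 69.6% to 94.9% of fibroblasts and 2.01% to 7.42% of basal urothelial cells had a Serping1 UMI, and unthinned 87.0% to 98.1% and 5.07% to 19.5%.

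Fibroblasts thus carried more C3, C4b, Cfb and C1ra than myofibroblasts, 4 of the 9 genes tested, with 0 lower, and DESeq2 called 5. Of all 9570 genes tested in that comparison 20.7% passed the threshold, 9.09% being higher in fibroblasts. The median log2 difference of the 9 genes was 0.48, against -0.01 over all genes. The 9 genes were chosen with earlier results of these data known, so such counts beside all genes are a description only. In mesenchymal against urothelial cells 7 of 9 were higher and Clu was lower, where 71.2% of 13269 genes were called. In macrophages against mesenchymal cells C1qa, C1qb and Clu were higher and C1s1, C1ra and Serping1 lower among 8 tested, where 50.6% of 5117 genes were called.

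The fibroblasts fell into subtypes led by Pi16 and Mfap5, by Has1, Scara5 and Bglap2, and by Inmt, Sct and Ass1, and these could be compared in 5 libraries, since chronic replicate 2 had 5 to 11 cells of each. Like the macrophage sub-clusters, the subtypes were formed on the same cells, from genes other than complement genes, so their p-values may be too small. C3 was highest in the Pi16/Mfap5 subtype, at 108 and 71.4 CPM in the healthy libraries, 105 and 29.2 in the acute and 57.6 in chronic replicate 1. The Has1/Scara5/Bglap2 subtype was at 34.2 and 23.5, 37.1 and 16.5, and 30.6 CPM, and the Inmt/Sct/Ass1 subtype at 48.4 and 15.9, 21.8 and 9.93, and 42.6 CPM. The Pi16/Mfap5 subtype was above both others in 5 of 5 libraries, by a log2 of 1.35 ± 0.17 over the Has1/Scara5/Bglap2 subtype (adjusted p = 6.5e-06) and 1.41 ± 0.21 over the Inmt/Sct/Ass1 subtype (adjusted p = 1.2e-04). Without the library as a block neither was called, with adjusted p of 0.16 and 0.41, the highest of the alternatives (from 7.4e-14 and 3.4e-12).

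C1ra was also higher in the Pi16/Mfap5 subtype. It was at 317 and 209, 161 and 279.9, and 370.1 CPM in the Pi16/Mfap5 subtype, against 174 and 164, 80.8 and 165, and 229.7 CPM in the Has1/Scara5/Bglap2 subtype. The log2 difference was 0.70 ± 0.10 (adjusted p = 2.8e-05; 0.3 without the library as a block, and 9.5e-11 to 0.3 over the alternatives), and over the Inmt/Sct/Ass1 subtype it was 0.50 ± 0.11 (adjusted p = 0.0061; 0.087 without acute replicate 2 and 7.4e-05 to 1 over the alternatives). Serping1 and Cfb were also higher in the Pi16/Mfap5 than in the Has1/Scara5/Bglap2 subtype, by a log2 of 0.31 ± 0.09 (adjusted p = 0.019) and 0.74 ± 0.24 (adjusted p = 0.035). Both calls were lost with DESeq2, with adjusted p of 0.095 and 0.15, and on leaving out healthy replicate 2 (0.058 and 0.099) or acute replicate 2 (0.10 and 0.078). The Cfb call was also lost without acute replicate 1 (0.10) or chronic replicate 1 (0.079). Over all alternatives the adjusted p ran from 6.3e-04 to 0.67 for Serping1 and from 0.0048 to 0.51 for Cfb.

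C4b and C1s1 did not pass the threshold in any comparison of subtypes. C4b averaged 312 ± 112 CPM in the Pi16/Mfap5, 295 ± 110 in the Has1/Scara5/Bglap2 and 255 ± 166 in the Inmt/Sct/Ass1 subtype (SD, n = 5), and C1s1 478 ± 71.5, 455 ± 49.8 and 399 ± 123 CPM. Of the 7 genes tested 4 were higher in the Pi16/Mfap5 than in the Has1/Scara5/Bglap2 subtype, where 15.9% of 8016 genes were called. Against the Inmt/Sct/Ass1 subtype 2 of 7 were higher, where 4.87% of 7474 genes were called. Between the Has1/Scara5/Bglap2 and Inmt/Sct/Ass1 subtypes 0 of 7 passed in edgeR, where 11.1% of 6813 genes did. There 1 of the 7, C1ra, had an unadjusted p under 0.05, as did 25.6% of all genes, and DESeq2 called 0.

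**Figure D3:**
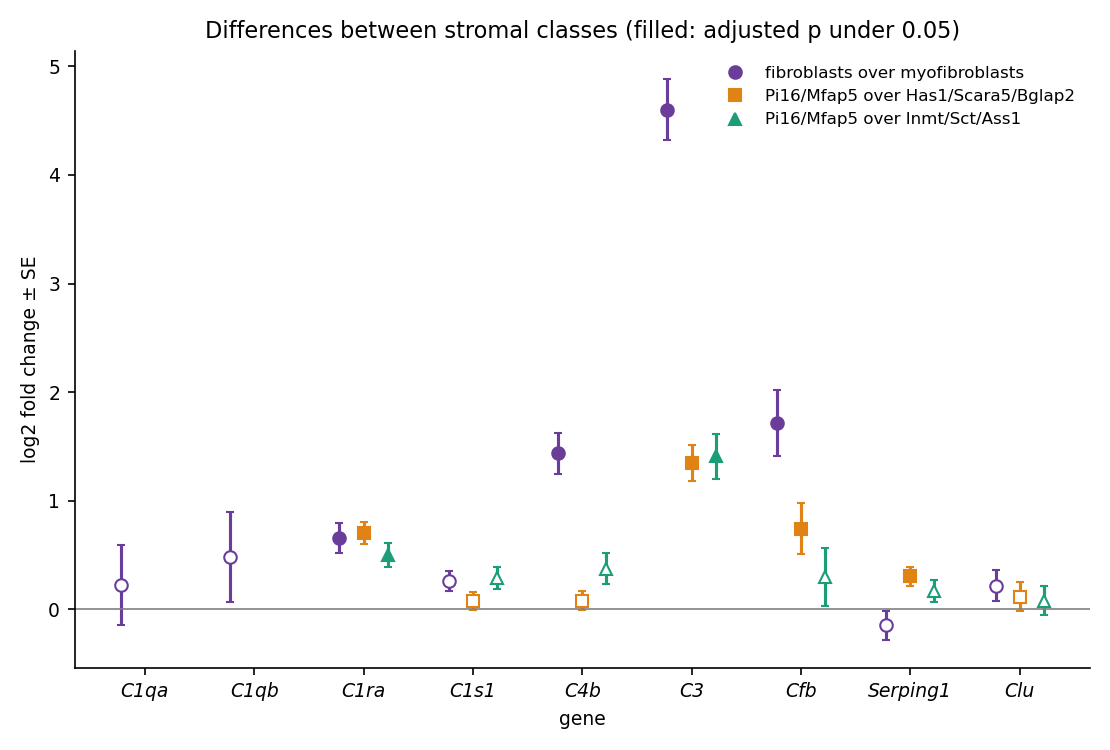
Log2 fold change (vertical axis, bars 1 SE) of each gene for fibroblasts over myofibroblasts and for the Pi16/Mfap5 subtype over each other fibroblast subtype, with filled points at adjusted p under 0.05. C3 was the highest of the genes plotted in all 3 comparisons, at 4.60, 1.35 and 1.41.

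Clusterin had another distribution, rising through the urothelium towards the urine. In superficial cells Clu was at 362 and 2378 CPM in the healthy libraries, 563 and 463 in the acute and 1404 and 797 in the chronic libraries. In intermediate cells it was at 62.0 and 231, 96.2 and 79.5, and 311 and 139 CPM. In basal cells it was at 15.3 and 148, 38.2 and 48.7, and 223 and 56.9 CPM. Superficial cells exceeded intermediate cells 4.51-fold to 10.3-fold within each library, a log2 difference of 2.70 ± 0.12 (adjusted p = 6.1e-11). Intermediate cells exceeded basal cells 1.40-fold to 4.05-fold, a log2 difference of 1.04 ± 0.11 (adjusted p = 1.7e-07), and without the library as a block the adjusted p was 0.33 (8.6e-11 to 0.33 over the alternatives). The 2 healthy libraries were the highest and the lowest of all superficial libraries. Mesenchymal cells were below urothelial cells in Clu, by a log2 difference of -1.69 ± 0.22 (adjusted p = 4.9e-05).

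In each urothelial comparison the members called were Clu and C3, in opposite directions, among 8 tested. Of all genes 44.2% of 11839 were called between intermediate and basal cells and 53.9% of 11917 between superficial and intermediate cells. Cycling urothelial cells had 288 ± 152 CPM of Clu (SD, n = 6).

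Outside the urothelium endothelial cells had the most Clu, at 516 CPM in healthy replicate 1, 401 and 359.8 in the acute and 635 and 362 in the chronic libraries. Mural cells had 197 and 288 CPM in the acute libraries. In the other classes the level moved with the library. Fibroblasts were at 26.6 and 217 CPM in the healthy libraries, 30.3 and 67.0 in the acute and 242 and 108 in the chronic libraries, and macrophages at 32.1 and 219, 31.2 and 62.6, and 282 and 73.1 CPM. Healthy replicate 2 and chronic replicate 1 were the highest in both classes. The 5 superficial markers, all detected, summed to 289 and 1220, 345 and 859, and 2323 and 839 CPM in fibroblasts, in the same order, highest in these libraries too. They summed to 1311 and 1941, 1061 and 1178, and 3905 and 1699 CPM in macrophages. In endothelial cells they summed to 1032 CPM in healthy replicate 1, 3414 and 1575 in the acute and 5070 and 6647 in the chronic libraries, against 14941 to 22904 CPM in superficial cells. The part of RNA from superficial cells in the Clu of fibroblasts, macrophages and endothelial cells was not tested. Clu in fibroblasts was 5.38% to 17.2% of that in superficial cells of its library, and in endothelial cells 45.3% to 143%. Macrophages exceeded mesenchymal cells in Clu by a log2 of 0.46 ± 0.16 (adjusted p = 0.029), a call lost in 7 of the alternatives, with adjusted p from 0.052 to 0.70.

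**Figure D4:**
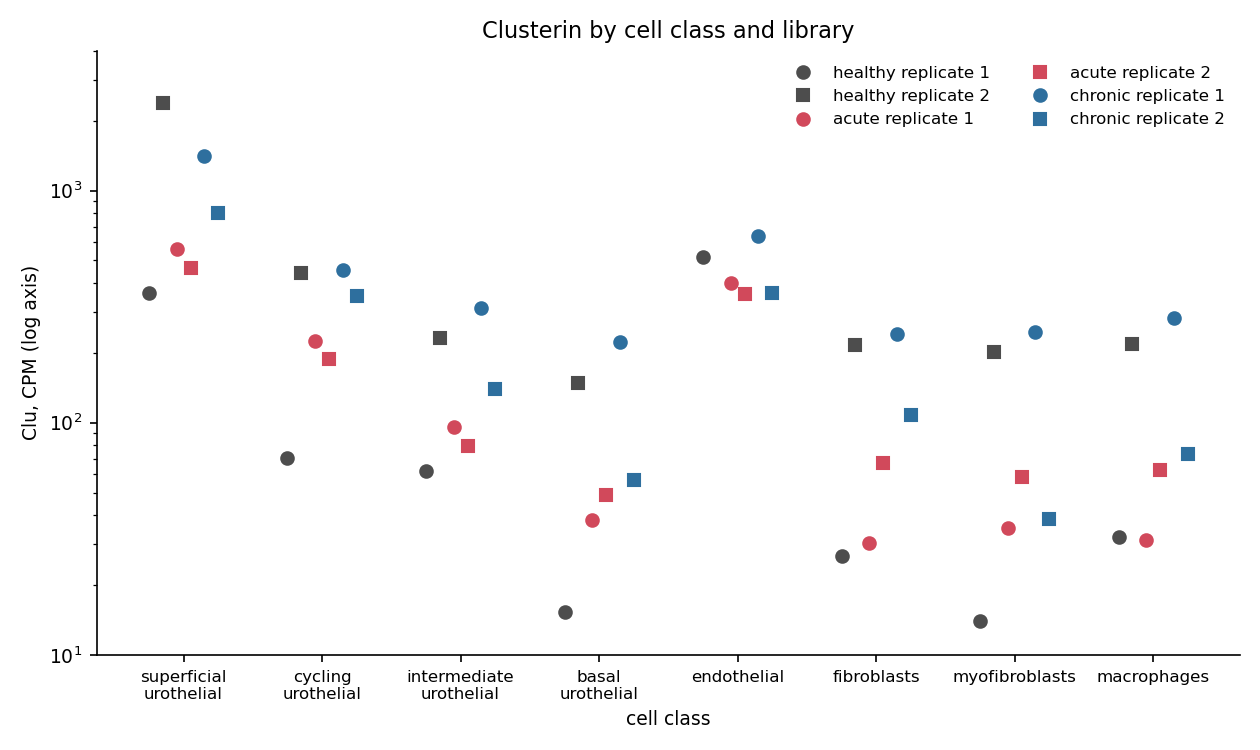
CPM of Clu (vertical log axis) per library in 8 cell classes, with circles for replicate 1 and squares for replicate 2, coloured by group. Superficial cells stood above intermediate and basal cells in each library, and healthy replicate 2 and chronic replicate 1 were high in most classes.

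The effect of injury was tested in 6 classes (fibroblasts, myofibroblasts, macrophages and basal, intermediate and superficial cells) by comparing 2 acute or 2 chronic libraries with 2 healthy ones. Of the 9 genes 5 to 9 could be tested per class, and 0 passed in these classes with edgeR or DESeq2. Over the 6 classes, 0 of 43 tests of these genes in the acute group and 6 of 43 in the chronic group had an unadjusted p under 0.05, as did 3.26% and 5.3% of the tests of all genes. Between acute and chronic libraries 12 of 43 did, against 3.93% of all tests, and 0 passed after adjustment. Few genes of any kind passed. In acute against healthy fibroblasts 0.0922% of 10851 genes were called and in chronic against healthy fibroblasts 0.0461%, with 425 and 584 genes at an unadjusted p under 0.05. In acute against healthy myofibroblasts 0.0505% of 7922 genes were called (0.0379% lower), in acute against healthy superficial cells 0.0178% of 11253, and in the other injury comparisons of these classes 0. For a single gene, an exact permutation test of 2 against 2 libraries cannot give a p below 0.333. In simulated data for acute against healthy fibroblasts the same test recovered 2% of genes changed 2-fold and 78% of genes changed 4-fold. Changes of the smaller size were thus mostly not detectable. The test also called 12 and 17 unchanged genes in these data, beside 4 and 156 recovered.

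In fibroblasts the chronic values of C4b, Cfb and C1qa did not overlap the healthy ones, while those of the other 6 genes did. C4b, at 465 and 487 CPM, lay above the 341 and 253 CPM of the healthy libraries, a log2 difference of 0.56 ± 0.37 (unadjusted p = 0.15, adjusted p = 0.99). In myofibroblasts chronic C4b, at 270.4 and 155 CPM, lay above the healthy 124 and 78.1 CPM, 1 of 6 members tested, where 16.2% of genes lay above. The 6 fibroblast markers summed to 521 and 2208 CPM in healthy and 2855 and 374 CPM in chronic myofibroblasts, and their part in the C4b values was not tested. Cfb was above both healthy libraries in both chronic libraries of fibroblasts, with a log2 difference of 1.54 ± 0.56 (unadjusted p = 0.019, adjusted p = 0.82), but the value of chronic replicate 2 fell into the healthy range without the cell described above. C1qa was also above in both chronic libraries, at 9.03 and 108 CPM against 4.77 and 8.69 CPM, with the macrophage markers high in the latter library. Of the 10851 genes tested 18.7% lay above and 19% below both healthy libraries in both chronic libraries of fibroblasts, so 3 of 9 members above is to be read beside that share.

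C1s1 was lower in both acute libraries than in both healthy ones in fibroblasts (355 and 428 against 549.7 and 483 CPM) and in myofibroblasts (324 and 325 against 429 and 381 CPM). The log2 difference in fibroblasts was -0.41 ± 0.30 (adjusted p = 1). Of all genes tested 16.5% lay below both healthy libraries in both acute libraries of fibroblasts and 15.7% in myofibroblasts. C3 in fibroblasts overlapped between all groups, with a log2 difference of -0.67 ± 0.71 in the acute and 0.82 ± 0.79 in the chronic group, and the chronic value was -0.52 without chronic replicate 2. Clu in fibroblasts differed by -1.29 ± 0.77 in the acute and 0.60 ± 0.77 in the chronic group, and without healthy replicate 2 these values were 0.90 and 2.74, the latter called (adjusted p = 0.037, the lowest of the alternatives, which ran up to 1). That fit has 1 healthy library, which is assumed to vary like those of the other groups. The acute effect and the chronic effect did not differ between fibroblasts and myofibroblasts past the threshold for any of the 9 genes in edgeR or DESeq2 (edgeR called 0 of 10917 genes in each, with 461 and 458 at an unadjusted p under 0.05).

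Between the injured groups C4b was lower in both acute than in both chronic libraries in fibroblasts (log2 difference -1.12 ± 0.37, unadjusted p = 0.012, adjusted p = 1) and myofibroblasts (-1.65 ± 0.45, unadjusted p = 0.0066, adjusted p = 0.86). C1s1, Cfb and Clu also lay below in fibroblasts, making 4 of 9 members, where 15.8% of all genes lay below and 15.2% above. Without the cell of chronic replicate 2 described above, that library was at 15.1 CPM for Cfb and 0 for Clu. Acute fibroblasts did not then lie below for Cfb or Clu, leaving C4b and C1s1. In myofibroblasts C4b and C1s1 lay below, 2 of 6, where 18.1% of genes lay below and 17.8% above. The 6 fibroblast markers summed to 275 and 280 CPM in acute and 2855 and 374 CPM in chronic myofibroblasts, and their part was not tested. In macrophages C1qa lay above and Clu below, where 11.6% and 20.7% of genes did. In basal and superficial cells C4b, C1qa, C1qb and Clu lay below, 4 of 8 and 4 of 7, and in intermediate cells these and C3, 5 of 8, where 14.9%, 16.7% and 14.9% of genes lay below. C4b there was at 2.43 to 5.27 CPM in the acute and 4.96 to 19.97 CPM in the chronic libraries, with chronic replicate 1 the highest library in each layer. The 6 fibroblast markers were also highest there, at 132 to 169 CPM over the layers, against 32.2 to 107 in the other libraries. The 9 macrophage markers summed to 31.0 and 46.5 CPM in acute and 61.2 and 80.5 in chronic superficial cells, 50.4 and 56.3 against 67.4 and 89.4 in intermediate cells, and 42.3 and 42.6 against 38.4 and 89.8 in basal cells. The part of RNA from these other cells in the urothelial values was not tested. The 12 tests at an unadjusted p under 0.05 were C4b in all these classes but macrophages, Cfb and Clu in fibroblasts, C1qb in the urothelial layers and C1qa in basal and superficial cells. All were lower in the acute group, with adjusted p of 0.86 or more. For Cfb and Clu in fibroblasts the value of chronic replicate 2 came mostly or wholly from the cell named above (6 of 7 and 8 of 8 UMIs). The classes share the same 4 libraries, so they are not independent of each other.

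In macrophages C1qa was lower in both chronic libraries, at 6061 and 3741 CPM, than in the healthy libraries, at 6435 and 7361 CPM, with a log2 difference of -0.63 ± 0.39 (adjusted p = 0.97). C1qb differed by -0.33 ± 0.37, with 7195 CPM in chronic replicate 1 lying between the healthy values. Of 3601 genes tested 11.6% lay below both healthy libraries in both chronic libraries. In the acute libraries 0 of the 5 members tested lay apart from the healthy ones, where 13.7% of genes lay above and 12.6% below. In superficial cells Clu differed by a log2 of -1.44 ± 0.68 in the acute group (adjusted p = 0.91) and -0.36 ± 0.66 in the chronic group. Both directions rested on healthy replicate 2, without which they were 0.54 and 1.62. In the urothelial layers C1qa and C1qb lay above both healthy libraries in both chronic libraries of basal, intermediate and superficial cells, at 2.95 to 10.4 CPM for C1qa and 3.97 to 16.8 CPM for C1qb over all urothelial cells of the 6 libraries. The 9 macrophage markers were at 45.9 and 49.9 CPM in healthy basal cells, 53.3 and 52.2 CPM in healthy intermediate and 42.8 and 42.3 CPM in healthy superficial cells, below both chronic values given above in the latter layers and between them in basal cells. Their part in these C1q values was not tested. The differences of C1qa and C1qb in these layers were not called (adjusted p 0.60 or more), and genes lying above in this way were 13.9% of those tested in basal, 14.1% in intermediate and 19.5% in superficial cells. C3 also lay above in chronic intermediate cells, at 3.56 and 2.84 against 1.35 and 2.29 CPM. C4b lay below in both acute libraries of basal cells, at 2.84 and 3.59 against 5.29 and 3.70 CPM, and of superficial cells, at 3.08 and 4.18 against 5.56 and 6.57 CPM, where 15.7% and 17% of genes lay below. The 6 fibroblast markers also lay below there, at 32.2 and 57.4 against 81.2 and 94.6 CPM in basal and 35.4 and 49.7 against 79.8 and 107 CPM in superficial cells, and their part in the C4b values was not tested.

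**Figure D5:**
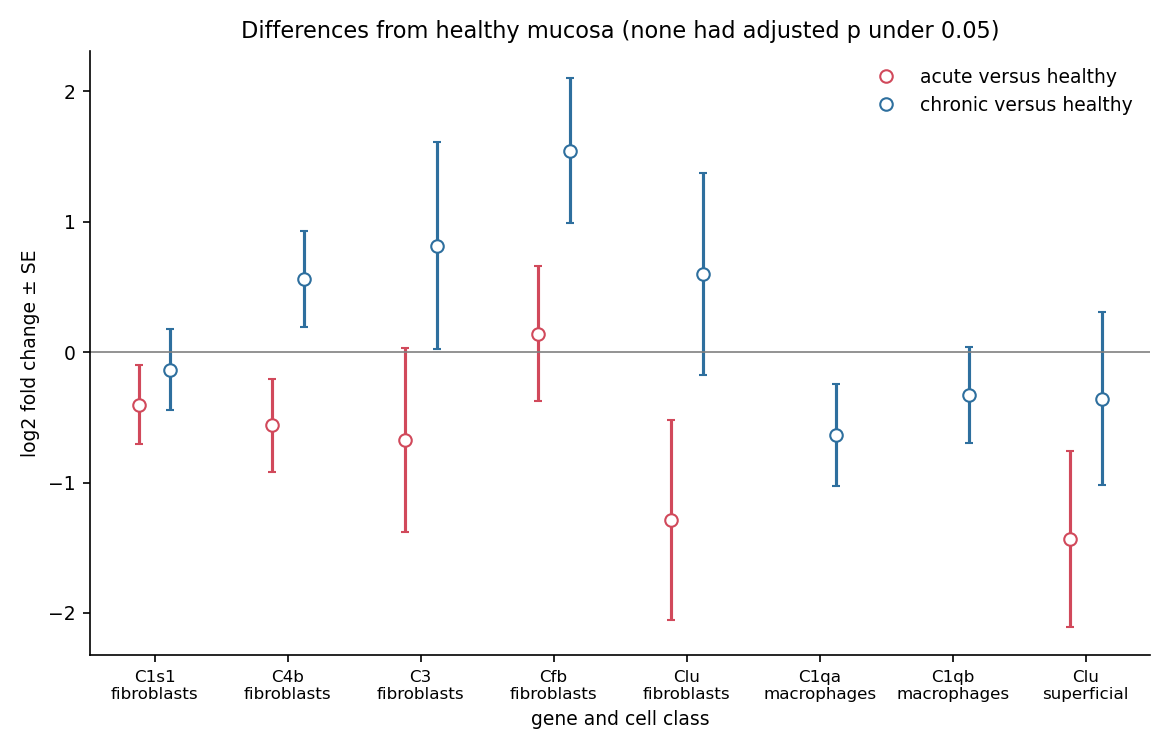
Log2 fold change (vertical axis, bars 1 SE) of acute and chronic over healthy libraries for C1s1, C4b, C3, Cfb and Clu in fibroblasts, C1qa and C1qb in macrophages (chronic only) and Clu in superficial cells. None passed an adjusted p of 0.05, and the values ran from -1.44 (Clu, acute superficial cells) to 1.54 (Cfb, chronic fibroblasts).

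Other genes of the complement system, a list of 44 of which 25 were in all 6 libraries, were set beside these 9. In macrophages against mesenchymal cells 8 of 14 tested were higher and 3 lower, beside 24.1% and 26.5% of all genes. They included C1qc, the remaining C1q chain, at 5658 against 11.2 CPM (log2 difference 9.80), the lectin Fcna at a mean of 719 CPM (9.48), and the receptors for the fragments of C3 and C5, C3ar1 at 244 CPM (9.30) and C5ar1 at 523 CPM (8.86). In fibroblasts against myofibroblasts 2 of 9 were higher and 2 lower, beside 9.09% and 11.6% of all genes. Cd55, which dismantles the C3-cutting enzyme on cell surfaces, was at 236 against 39.2 CPM (3.01). The lectin Colec11 was at 1.77 against 38.8 CPM (-4.17) and C2, the partner of C4, at 48.9 against 93.4 CPM (-0.97).

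In the Pi16/Mfap5 subtype 4 of 7 tested were higher than in the Has1/Scara5/Bglap2 subtype and 0 lower, beside 8.35% and 7.56% of all genes, led by Cd55 (1.00) and C2 (0.54). Against the Inmt/Sct/Ass1 subtype 2 of 7 were higher and 0 lower, beside 2.98% and 1.89% of all genes. The Has1/Scara5/Bglap2 subtype had 0 of 7 higher and 2 lower than the Inmt/Sct/Ass1 subtype, beside 5.49% and 5.56%. In mesenchymal against urothelial cells 8 of 20 were higher, among them Colec11 (6.22), and 4 lower, beside 32.9% and 38.3% of all genes. Between urothelial layers 7 of 16 were higher and 2 lower in intermediate than in basal cells, beside 21.2% and 23% of all genes, and 5 of 15 were higher and 3 lower in superficial than in intermediate cells, beside 27% and 26.9%. Susd4, a membrane regulator of complement, led both (0.92 and 0.78). Against healthy libraries 0 of 8 to 21 tested per class passed in edgeR, with 2 of 79 tests in the acute and 6 of 79 in the chronic group at an unadjusted p under 0.05, beside the 3.26% and 5.3% of all tests. Between acute and chronic libraries 9 of 79 were, beside 3.93% of all tests.

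The genes whose pattern was most like that of a member were sought over 60 pairs of class and library among 9740 genes, as Pearson's r of log2(CPM + 1), a description whose points share libraries and classes. Serping1 was most like Bgn (0.98), Serpinh1 (0.97) and Col3a1 (0.96), genes of the stromal matrix and its folding. C1s1 was most like Bgn (0.95), Lhfp (0.95) and Cygb (0.95). C4b had lower values, with Pmp22 (0.82), Timp2 (0.82) and Igf1 (0.81), and C3 the lowest, with Sdc3 (0.69), Pcolce2 (0.68) and Clec3b (0.67). C1qa was most like Folr2 (0.92), C1qb (0.92) and Pla2g2d (0.92). Clu was most like Fabp4 (0.86), Fam25c (0.82) and Psca (0.82), the last a surface protein of the urothelium. Among the members, C1s1 and Serping1 had r = 0.94, C1ra and Serping1 0.92, C1ra and C1s1 0.89 and C4b and C1ra 0.77.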

How the data were processed

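Single-cell suspensions of mouse bladder mucosa were sequenced with a 3′ droplet assay, and per the labels the reads were processed with Cell Ranger against mm10. The deposited tables hold raw UMI counts per gene and barcode, not normalized by the authors. The last, incomplete line of the healthy replicate 1 table was dropped, and the annotation differed between tables. Every gene listed was found in at least 8 barcodes in healthy replicate 1 and at least 6 in acute replicate 1. In the other tables genes found in 1 barcode were listed, so rare genes were missing from the list common to all libraries. The 9 genes and all lists were chosen with earlier results of these data known.

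Barcodes with at least 500 genes and at most 10% mitochondrial UMIs were kept (5348 to 13864 per library). Doublets were scored with scrublet, marked at a rate of 0.8% per 1000 cells (229 to 1538 per library) and removed. A cluster rich in doublets was clustered again and its worst sub-clusters dropped, the myeloid cluster was split at a resolution of 0.5, and sub-clusters led by markers of another class were left out. These rules were settled after the clusters were seen. Libraries were integrated with Seurat 5.3.0 and sctransform 0.4.2 and clustered with scanpy 1.11.5 and leidenalg 0.10.2 (3000 features, 30 components, 20 neighbours, resolution 0.8), without complement genes. Classes were named from fixed marker lists.

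UMIs were summed per library and class (at least 20 cells) and tested with edgeR 4.0.16 (TMM, filterByExpr, quasi-likelihood F test, Benjamini-Hochberg adjustment over all genes, threshold 0.05) in R 4.3.3. Class comparisons had the library as a block; injury comparisons had no block. SE is the absolute log2 fold change divided by the square root of F. Per-cell shares were taken after thinning to 1500 UMIs. Alternatives were DESeq2 1.42.0, other size factors, filters and cells, clusters without integration, blocks, and each library left out. In data simulated for fibroblasts versus myofibroblasts, with 200 changed genes among 9466 and 9452, the test recovered 87% of 2-fold and 97.5% of 4-fold changes. It also called 21 and 22 unchanged genes there, beside 174 and 195 recovered. For acute versus healthy macrophages, among 3370 and 3240 genes, it recovered 0% and 77.5% and called 1 and 20 unchanged genes. The share of false calls could thus exceed the threshold of 0.05. The changed genes were drawn from those with a mean over 20 UMIs.

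The 9 genes were all given values. Of the other complement genes, up to 4 per comparison that passed, with the greatest fold changes at a mean of at least 10 CPM, could be named (1 that qualified is not reported here), and the 3 most alike genes for C3, C4b, C1s1, C1qa, Serping1 and Clu. Motifs were chosen with the sequences in view. Intervals and limits of a count of 0 cover counting error only.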

Additional observations from a re-analysis of the deposited data

Results flagged for a closer look

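In 5 of 63 sets of 5 or 6 libraries tested, the highest or lowest library stood apart from the rest by Dixon's criterion. Chance alone does this in about 1 in 20 sets. All flagged sets were of 6 libraries, and the sets of 5 were those between fibroblast subtypes. Each value is a log2 difference of CPM + 1 between classes within a library.

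C3 in mesenchymal over urothelial cells was 0.97 in acute replicate 2, where the next lowest library was at 3.19. C1ra in the same comparison was also lowest in acute replicate 2, at 4.75 against 5.53 in the next. Fibroblasts were 1604 of 4384 mesenchymal cells in acute replicate 2 and 325 of 486 in acute replicate 1, 832 of 1806 and 1258 of 1632 in the healthy and 1120 of 1274 and 23 of 101 in the chronic libraries. C1qa in macrophages over mesenchymal cells was 6.80 in chronic replicate 2 against 9.13 in the next library, beside its macrophage marker sum of 757 CPM in fibroblasts. Serping1 in intermediate over basal cells was 0.41 in chronic replicate 1, where the next highest was at -0.0028. Clu in superficial over intermediate cells was 3.36 in healthy replicate 2, where the next highest was at 2.54, and this library also had the highest Clu in superficial cells, 2378 CPM. The causes were not tested.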

How the results depend on the processing

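The 28 log2 differences between classes past the threshold were recomputed in 390 alternatives, of which 357 kept the call, 33 lost it and 0 changed direction. The 14 log2 differences from healthy libraries given for fibroblasts, macrophages and superficial cells were recomputed in 196 alternatives. Of these, 186 stayed without a call in the same direction, 1 gained a call and 9 reversed. The log2 differences between acute and chronic libraries were not among the 14. With a library left out, acute fibroblast Cfb ran from -0.37 to 1.00 (lowest without healthy replicate 2, and -0.34 without acute replicate 1), and acute fibroblast Clu from -2.13 to 0.90 (highest without healthy replicate 2). Chronic fibroblast C3 ran from -0.52 (without chronic replicate 2) to 2.00, and chronic fibroblast Clu from -0.41 (without chronic replicate 1, with -0.29 without healthy replicate 1) to 2.74 (without healthy replicate 2). Superficial Clu ran from -2.24 to 0.54 in the acute and from -1.16 to 1.62 in the chronic group, highest without healthy replicate 2 in both. Chronic superficial Clu was 0.20 when cells needed over 1000 genes and under 5% mitochondrial UMIs.

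The number of members called was 2 for fibroblasts against myofibroblasts, 1 for intermediate against basal, 1 for superficial against intermediate and 0 for both comparisons of the Pi16/Mfap5 subtype without the library as a block. The Pi16/Mfap5 over Has1/Scara5/Bglap2 count was 2 with DESeq2 and 2 to 4 with a library left out. Over the Inmt/Sct/Ass1 subtype it was 4 without the filter on low counts, 4 with doublets kept and 1 to 3 with a library left out. Leaving out a library gave 1 to 3 for superficial against intermediate cells, 0 to 1 for Has1/Scara5/Bglap2 against Inmt/Sct/Ass1 and 0 to 1 for chronic against healthy fibroblasts. The causes were not tested. Clusters without integration gave no value for comparisons with the Inmt/Sct/Ass1 subtype.

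Counts of all genes called moved more. Acute against healthy fibroblasts had 10 genes, 19 with DESeq2, 20 without the filter, 5 without integration and 0 to 108 with a library left out. Chronic against healthy fibroblasts had 5, with 23, 17, 3 and 0 to 62, and 2 with doublets kept. Acute against healthy superficial cells had 2, with 23 by DESeq2 and 0 to 61 with a library left out, and acute against healthy myofibroblasts 4, with 58 without the filter and 0 to 25. The injury comparisons with 0 genes had up to 51 with DESeq2, up to 54 without the filter and up to 84 with a library left out. Fibroblasts against myofibroblasts had 1978, with 801 without the library as a block, intermediate against basal cells 5234 with 1533, superficial against intermediate cells 6429 with 3276, and macrophages against mesenchymal cells 2591 with 5065 without the filter. The Pi16/Mfap5 subtype had 1275 over Has1/Scara5/Bglap2, with 485 by DESeq2, 2065 with doublets kept and 2 without the library as a block, and 364 over Inmt/Sct/Ass1, with 207, 802 and 0. Has1/Scara5/Bglap2 against Inmt/Sct/Ass1 had 753, with 221, 365 and 0.

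The labels do not say whether the replicate numbers follow a batch or any other pairing of libraries. Libraries with the same number deviated together between acute and healthy in 5 of 6 classes (r from 0.33 to 0.50, and -0.07 in macrophages) and apart between chronic and healthy (r from -0.55 to -0.25), with r from -0.36 to 0.06 between acute and chronic. With the replicate number as a block, 0 members were called in every injury comparison, and the genes called were 17 in acute fibroblasts, 10 in chronic fibroblasts, 2 in acute myofibroblasts, 5 in acute superficial and 1 in chronic superficial cells. Since chronic and healthy libraries of the same number deviated apart, this block cannot decide whether a batch mattered. Pairings of unlike numbers were not fitted.

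With 23 fibroblasts in chronic replicate 2 and 2 libraries per group, depth limits the low genes: in that library 22 UMIs stood behind the fibroblast value of C3, 14 behind C1ra, 8 each behind C1qa, C1qb and Clu, and 7 behind Cfb.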

Other observations

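Beyond the comparisons above, properdin (Cfp), which stabilises the alternative pathway enzyme, averaged 953 CPM in macrophages and 425 CPM in antigen presenting cells. Cd93, a receptor once assigned to C1q, averaged 354 CPM in endothelial cells. C1qbp, a C1q-binding protein of mitochondria, was found in every class. It averaged 184 CPM in superficial cells, 183 in cycling urothelial cells and 73.0 to 161 in the other classes. Among cycling urothelial cells Clu differed between sub-clusters, a description without a test: a sub-cluster led by 2810417H13Rik and Cdca3, with under 20 cells in each healthy library, was at 323 and 209 CPM in the acute and 517 and 476 CPM in the chronic libraries. The other, led by Cdc20 and Cenpe, was at 32.5 and 56.1 CPM in the acute, 217 and 64.3 in the chronic and 30.03 and 147 in the healthy libraries.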
